A study of Mus musculus with 4 samples.

Results

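Genes of DNA replication and mitosis were followed through single-cell RNA-seq (scRNA-seq) of mouse embryoid bodies (EBs) at day 6, in WT and in LSD1 KO cells. The set holds 40 genes matched by symbol: 19 genes that act when DNA is copied (S-phase genes) and 21 genes that act when chromosomes are separated (mitotic genes), of 25209 genes in the files. All 40 were seen in at least 10 cells, as were 18454 genes in total. EBs are balls of embryonic stem cells (ESCs) that differentiate when the factors that keep them pluripotent are taken away. They were grown here as hanging drops in serum medium. LSD1, encoded by Kdm1a, is a histone demethylase and a subunit of corepressor complexes.

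The WT group was EBs from unmodified V6.5 ESCs, and the LSD1 KO group was EBs from the same ESC line after CRISPR/Cas9 removal of the promoter and first exon of Kdm1a. Each genotype had 2 biological replicates with 1 droplet library each, all taken at day 6, and no agent was given to either. The study's methods name 2 independent clones for its RNA-seq, and whether that holds for the 2 KO scRNA-seq libraries is not given in the sources used here. Kdm1a was at 221 and 246 CPM (UMIs of the gene scaled to a common library total) in the WT libraries and at 1.10 and 0.81 CPM in the LSD1 KO libraries, as the genotype labels require.

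Replication begins when the MCM helicase, loaded in G1 by Cdc6 and Cdt1, is switched on and the sliding clamp Pcna tethers the polymerases to DNA. Most genes for this machinery are transcribed in a wave at the G1/S boundary under E2F factors, which cyclin E (Ccne1 and Ccne2) with Cdk2 helps to release from the retinoblastoma protein. Genes for mitosis follow in G2, when the MuvB complex with B-Myb and FoxM1 acts through a promoter element called CHR, often beside CCAAT boxes bound by NF-Y, and pluripotent cells pass through G1 quickly.

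The promoters of 6 members are shown because they carry, or lack, the words of these elements. Each line runs 5′ to 3′ along the gene's strand from 250 bases before to 50 bases after the RefSeq start, in GRCm38.p6. In the 3 S-phase promoters, capitals mark E2F words (TTCCCGC or TTCGCGC or TTGCCGC or TTGGCGC, on either strand), and neighbouring words may share bases.
Mcm5, a helicase subunit, chr8:75109259-75109558, plus strand: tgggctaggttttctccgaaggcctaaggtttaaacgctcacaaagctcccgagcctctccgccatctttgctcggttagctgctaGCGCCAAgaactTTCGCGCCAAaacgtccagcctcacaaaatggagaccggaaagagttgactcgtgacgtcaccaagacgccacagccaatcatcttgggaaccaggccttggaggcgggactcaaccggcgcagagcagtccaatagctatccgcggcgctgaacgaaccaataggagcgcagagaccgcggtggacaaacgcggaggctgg
Rrm1, the large subunit of ribonucleotide reductase, chr7:102441445-102441744, plus strand: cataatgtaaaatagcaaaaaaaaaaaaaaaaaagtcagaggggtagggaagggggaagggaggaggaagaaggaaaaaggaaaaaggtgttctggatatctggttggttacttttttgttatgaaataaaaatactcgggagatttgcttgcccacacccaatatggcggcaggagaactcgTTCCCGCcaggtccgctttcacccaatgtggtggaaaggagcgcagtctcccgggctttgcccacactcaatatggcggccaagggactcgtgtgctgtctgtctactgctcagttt
Ccne1, cyclin E1, chr7:38107441-38107740, minus strand, with no E2F word: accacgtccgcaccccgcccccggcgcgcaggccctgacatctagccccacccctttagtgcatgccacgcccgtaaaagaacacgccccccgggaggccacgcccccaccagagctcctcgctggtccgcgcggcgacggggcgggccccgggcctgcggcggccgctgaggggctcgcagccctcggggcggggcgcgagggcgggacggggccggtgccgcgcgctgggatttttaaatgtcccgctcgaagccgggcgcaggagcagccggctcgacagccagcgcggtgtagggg

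In the 3 mitotic promoters, capitals mark the CHR word TTTGAA and the word CCAAT, each on either strand.
Plk1, a kinase that drives entry into and passage through mitosis, chr7:122159185-122159484, plus strand: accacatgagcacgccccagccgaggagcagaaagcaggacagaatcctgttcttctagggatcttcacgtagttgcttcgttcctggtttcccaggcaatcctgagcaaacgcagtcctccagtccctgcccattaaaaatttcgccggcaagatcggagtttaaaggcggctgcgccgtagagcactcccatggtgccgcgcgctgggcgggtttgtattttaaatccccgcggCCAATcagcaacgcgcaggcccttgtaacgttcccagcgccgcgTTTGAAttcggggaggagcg
Cenpa, the histone H3 variant of centromeres, chr5:30666636-30666935, plus strand: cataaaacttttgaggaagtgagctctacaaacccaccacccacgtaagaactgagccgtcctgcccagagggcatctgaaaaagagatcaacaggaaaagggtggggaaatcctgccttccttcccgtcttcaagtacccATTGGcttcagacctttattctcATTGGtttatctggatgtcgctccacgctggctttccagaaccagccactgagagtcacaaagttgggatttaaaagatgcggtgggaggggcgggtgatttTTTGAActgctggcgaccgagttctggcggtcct
Cdc20, an activator of the anaphase-promoting complex, chr4:118437294-118437593, minus strand: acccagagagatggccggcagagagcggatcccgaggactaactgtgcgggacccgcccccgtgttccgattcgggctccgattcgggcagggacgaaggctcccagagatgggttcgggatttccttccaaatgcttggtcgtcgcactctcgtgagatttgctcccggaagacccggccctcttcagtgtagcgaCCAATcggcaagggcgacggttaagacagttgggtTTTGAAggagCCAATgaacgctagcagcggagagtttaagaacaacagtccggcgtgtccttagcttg

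RefSeq promoters were found for 33 of the 40 members, and the S-phase and mitotic genes differed in the words these held. An E2F word stood in 10 of 17 S-phase promoters (58.8%), in 3 of 18 mitotic promoters (16.7%) and in 9.57% of all 32851 promoters. TTTGAA stood in 13 of 18 mitotic promoters (72.2%), in 2 of 17 S-phase promoters (11.8%) and in 17.9% of all. Within the last 100 bases of the window, TTTGAA was in 12 mitotic promoters and in no S-phase promoter, against 4.94% of all. TTTGAA together with CCAAT was found in 12 mitotic promoters (66.7%), in 1 S-phase promoter (5.88%) and in 6.95% of all. These are matches of letters and not measured sites.

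The 4 libraries held 72285943 to 75406512 UMIs (unique molecular identifiers, each standing for 1 captured RNA molecule). A barcode counted as a cell from 500 UMIs and 500 genes upwards, and each library had 3045 to 6828 such cells with a median of 9211 to 20304 UMIs. The deepest cells were those of LSD1 KO replicate 2, at 20304. Any 2 libraries shared at most 15 cell barcodes. The make-up of the EBs differed by genotype: 8 of 8 neuron markers and 6 of 8 pluripotency markers were higher in LSD1 KO, and 8 of 8 markers of cardiac and lateral mesoderm and 8 of 8 of epithelial endoderm were lower.

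To compare the genotypes, UMIs of all cells of a library were summed, scaled by TMM and tested with edgeR's quasi-likelihood test over 16953 genes. Called below means a Benjamini-Hochberg adjusted p under 0.05. The replication genes were higher in LSD1 KO: 12 of 19 S-phase genes were called higher and 0 lower, while 22.6% of all genes were called higher and 21.6% lower. Of the mitotic genes 5 of 21 were called higher, a share close to that background, and 0 lower. At an unadjusted p under 0.05, 15 S-phase and 5 mitotic genes were higher and 0 of either set lower. Of all 16953 genes, 4620 were higher and 4520 lower by that rule. DESeq2 called 14 S-phase and 5 mitotic genes higher and 0 lower, against 3737 higher and 3647 lower of all genes. The median log2 fold change was 0.43 for the S-phase genes and 0.18 for the mitotic genes, against -0.00088 for all genes. Such sums follow both how many cells of each type an EB holds and how much RNA each cell holds, which cannot be told apart here.

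**Figure D1:**
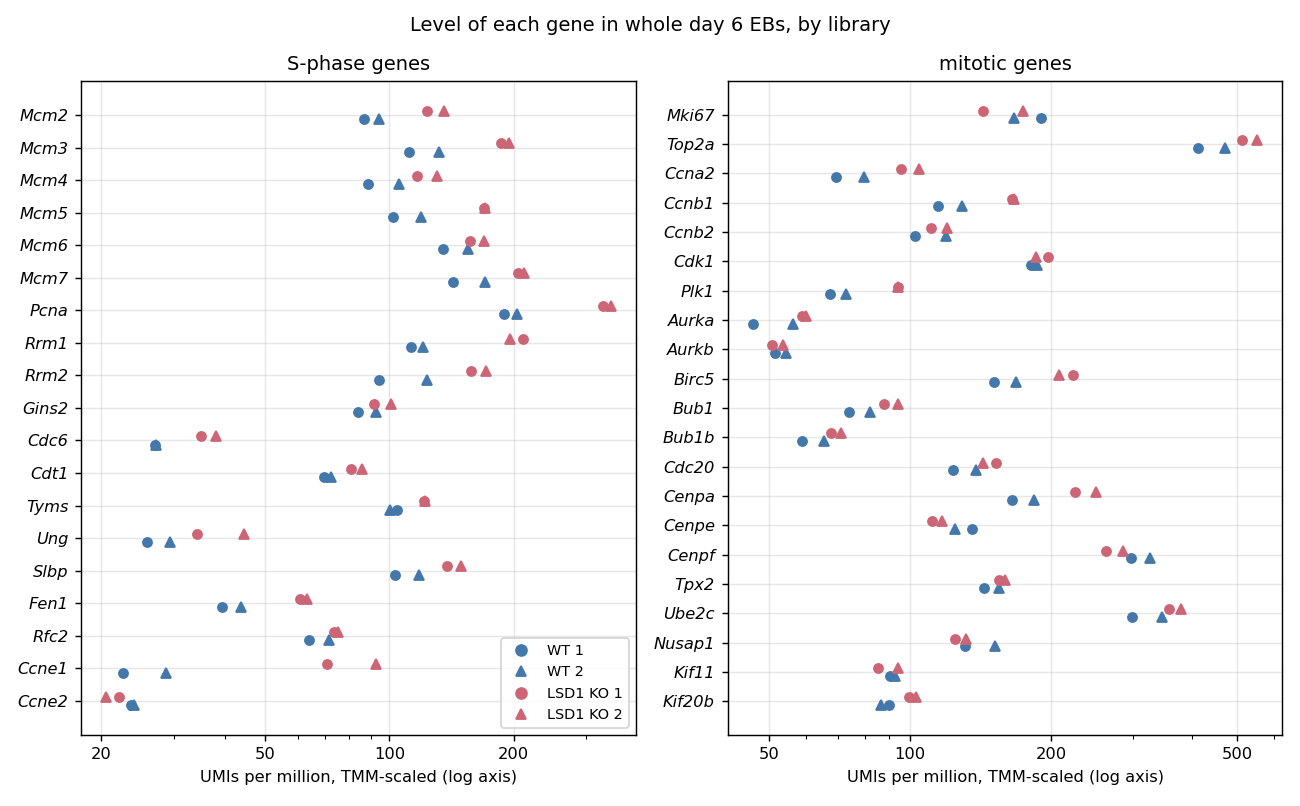
Expression of the 40 genes in the 4 libraries, in TMM-scaled CPM on a log axis, with 1 point per library. Both LSD1 KO libraries lay above both WT libraries for 17 of 19 S-phase genes and for 13 of 21 mitotic genes.

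Both LSD1 KO libraries lay above both WT libraries for 17 S-phase genes and below for 1, and above for 13 mitotic genes and below for 2. Over all genes tested, 39.1% lay above and 38.4% below in this way. The plot of levels by library shows these orders gene by gene.

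Of the 6 subunits of the MCM helicase, which unwinds DNA at the fork, 4 were called higher. Mcm3 was at 111 and 132 CPM in the WT libraries and at 187 and 195 CPM in the LSD1 KO libraries. Mcm5 was at 102 and 119 CPM in WT and at 169 and 171 CPM in LSD1 KO. For both subunits the groups stood apart by more than the spread within either, with log2 fold changes of 0.65 ± 0.11 and 0.62 ± 0.11 (SE; edgeR adjusted p = 0.00752 and 0.00738). Mcm2 rose by 0.52 and Mcm7 by 0.41 on the log2 scale. Mcm4, at 0.35, and Mcm6, at 0.17, were not called, although both LSD1 KO libraries lay above WT.

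Pcna, the sliding clamp, was at 189 and 203 CPM in WT and at 328 and 344 CPM in LSD1 KO. That is 1.71-fold higher, with a log2 fold change of 0.78 ± 0.094 (SE; edgeR adjusted p = 0.00283). Fen1, the nuclease that trims Okazaki fragments, went from 39.3 and 43.8 CPM to 60.7 and 63.3 CPM. It rose by 0.58 on the log2 scale, with no overlap between groups. Rfc2, a subunit of the complex that loads the clamp, was not called at 63.8, 71.4, 73.4 and 75.2 CPM in WT replicates 1 and 2 and LSD1 KO replicates 1 and 2.

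Genes of nucleotide supply did not all move alike. Rrm1, shown above with 1 E2F word, was at 113 and 120 CPM in WT and at 210 and 196 CPM in LSD1 KO. Its log2 fold change was 0.80 ± 0.091 (SE; edgeR adjusted p = 0.00242), and the groups were far apart. Rrm2, the small subunit that cells make mainly in S phase, was at 94.5 and 124 CPM in WT and 157 and 171 CPM in LSD1 KO, and rose by 0.59. Tyms, thymidylate synthase, was at 104 and 101 against 121 and 122 CPM, which did not pass the test (adjusted p = 0.0528 in edgeR).

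The loading factors gave small differences. Cdc6 was at 27.0 and 27.1 CPM in WT and at 34.9 and 38.1 CPM in LSD1 KO, and was called higher at a log2 fold change of 0.43. Its partner Cdt1 was at 69.4 and 72.1 against 80.7 and 85.7 CPM, and was not called at 0.23. Gins2, of the GINS complex that completes the helicase, had overlapping groups, at 84.1 and 92.6 against 91.8 and 101 CPM. Ung, which removes uracil from DNA, rose by 0.51, and Slbp, which binds the mRNAs of replication histones, by 0.37.

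The largest difference among the 40 genes was in Ccne1, and its paralog Ccne2 did not share it. Ccne1 (chromosome 7, 38883003 to 38892553, minus strand, NCBIM37, which is mm9) was at 22.6 and 28.8 CPM in WT and at 70.6 and 92.9 CPM in LSD1 KO. That is 3.18-fold, or 1.67 ± 0.18 on the log2 scale (SE; edgeR adjusted p = 0.00207). Ccne2 (chromosome 4, 11118498 to 11131926, plus strand) was at 23.7 and 24.0 CPM in WT and at 22.1 and 20.6 CPM in LSD1 KO, with a log2 fold change of -0.16 ± 0.100 (SE) that was not called (adjusted p = 0.242). It was the 1 S-phase gene with both LSD1 KO libraries below both WT libraries. The 2 changes were not tested against each other.

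Of the 21 mitotic genes, the 5 that were called lay in a narrow range of log2 fold change, from 0.42 to 0.45. Ccnb1, cyclin B1, which with Cdk1 starts mitosis, was at 115 and 129 CPM in WT and at 165 and 167 CPM in LSD1 KO. Plk1, whose promoter is shown above, was at 67.5 and 73.0 against 94.3 and 94.2 CPM. In both genes the LSD1 KO libraries lay close together and above WT. Cenpa was at 165 and 184 against 225 and 250 CPM, and Birc5, a subunit of the chromosomal passenger complex, at 152 and 168 against 223 and 208 CPM. Ccna2, cyclin A2, was at 69.5 and 79.7 against 95.5 and 104 CPM.

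Their partners did not pass the test. Cdk1 itself was at 181 and 186 CPM in WT and 197 and 186 CPM in LSD1 KO, a log2 fold change of 0.06. Ccnb2 was also at 0.06. Aurkb, the kinase of the passenger complex that holds Birc5, was at 51.4 and 54.3 against 50.7 and 53.5 CPM, with overlapping groups. Mki67, a common marker of cycling cells, was at 190 and 167 CPM in WT and at 143 and 175 CPM in LSD1 KO, so its groups overlapped too.

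Large proteins of the kinetochore, where chromosomes meet the spindle, lay on the other side of WT without being called. Cenpf was at 297 and 326 CPM in WT and at 262 and 285 CPM in LSD1 KO. Cenpe, a motor of the kinetochore, was at 136 and 125 against 111 and 117 CPM. Both had a log2 fold change of -0.19 and both LSD1 KO libraries below WT (adjusted p = 0.184 and 0.135 in edgeR). The remaining mitotic genes, which include Top2a, the topoisomerase that untangles sister chromatids, and Ube2c, a ubiquitin-conjugating enzyme of mitotic exit, lay at 0.27 or less.

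**Figure D2:**
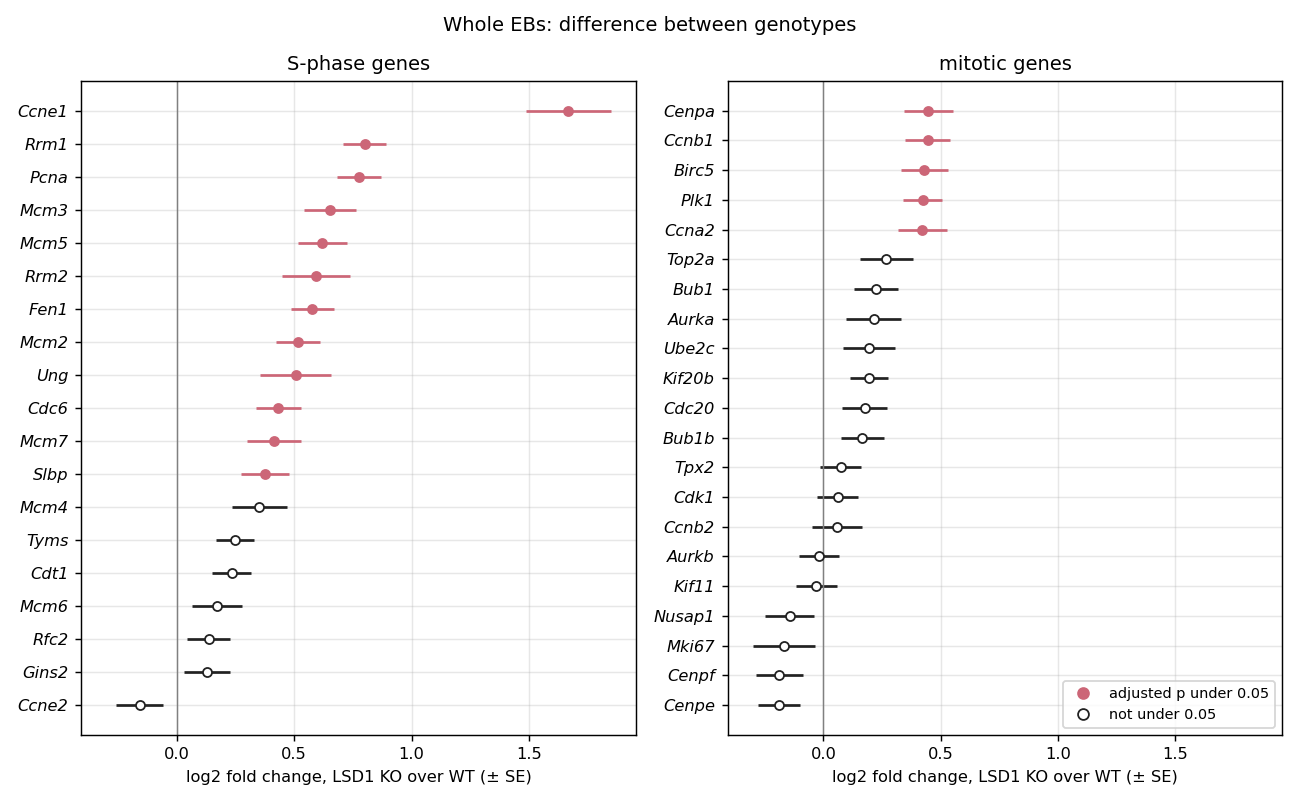
Log2 fold change of LSD1 KO over WT in whole EBs for each of the 40 genes, with bars for the standard error of the edgeR fit. S-phase genes reach 1.67 (Ccne1), and mitotic genes lie between -0.19 and 0.45.

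These calls rested on few libraries. 6 S-phase genes (Mcm3, Mcm5, Pcna, Rrm1, Fen1 and Ccne1) were called higher in each of the 11 other settings, which leave out each library in turn, and Ccne1 lay between 1.46 and 1.86. The count of S-phase genes called was 6 without LSD1 KO replicate 2. No mitotic gene was called without LSD1 KO replicate 1 or without LSD1 KO replicate 2, and 8 were called without WT replicate 2. Scaling by library totals alone moved the median of all genes to 0.13, raised the share of all calls that were higher from 51.2% to 65.2%, and called 17 S-phase and 12 mitotic genes higher. Medians were then 0.56 and 0.31.

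The genotypes were next compared cell by cell. Each cell was thinned at random to 5000 UMIs, which left out shallower cells and kept 3066 of 4393 and 5667 of 6828 cells in WT replicates 1 and 2, and 4363 of 5693 and 2176 of 3045 in those of LSD1 KO. At least 3 mitotic genes were seen in 72.4% and 73.6% of cells in WT, against 92.0% and 93.6% in LSD1 KO. At least 3 S-phase genes were seen in 87.8% and 88.6% of cells in WT, against 97.0% and 97.6% in LSD1 KO. Both shares were higher in both LSD1 KO libraries, with means of 73.0% ± 0.846 against 92.8% ± 1.12 for mitotic genes and 88.2% ± 0.600 against 97.3% ± 0.433 for S-phase genes (SD, n = 2; two-sided exact permutation p = 0.33, the smallest that 2 libraries against 2 can give). Without thinning the shares were 72.5%, 74.9%, 84.7% and 88.1% for mitotic genes and 80.4%, 89.0%, 86.9% and 86.6% for S-phase genes, in WT replicates 1 and 2 and LSD1 KO replicates 1 and 2. The unthinned S-phase shares overlapped between genotypes. The S-phase difference of 9.11 points was 3.71 points at a minimum of 2 genes, 23.5 at 5 genes and 25.9 after thinning to 2000 UMIs, and the mitotic difference of 19.8 points lay between 15.3 and 25.6 in these settings.

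Cells with no mitotic gene at all were rarer in both LSD1 KO libraries. They made up 10.4% and 10.2% of the WT libraries but 2.61% and 2.21% of the LSD1 KO libraries. Cells with 8 or more mitotic genes were 43.0% and 44.6% in WT and 65.9% and 70.9% in LSD1 KO. Cells with at least 3 S-phase genes but fewer than 3 mitotic genes were 21.4% and 20.1% in WT against 5.80% and 4.83% in LSD1 KO. The distributions of genes seen per cell show the shift over the whole range for both sets.

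**Figure D3:**
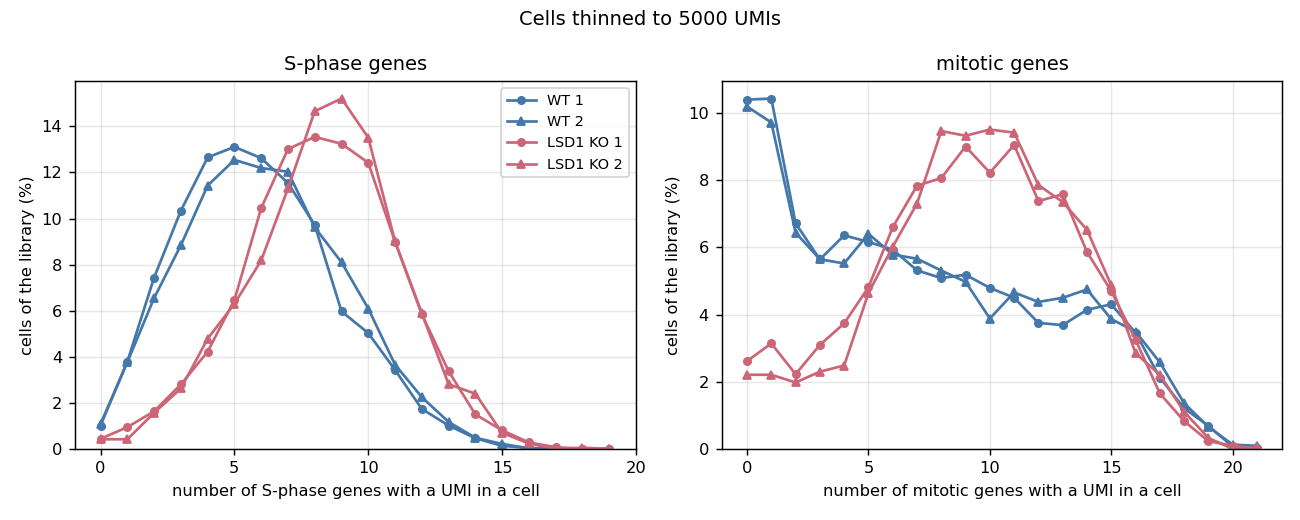
Distribution over cells of the number of S-phase genes and of mitotic genes seen in cells thinned to 5000 UMIs, with 1 line per library. Medians were 6, 6, 8 and 8 S-phase genes and 6, 7, 9 and 10 mitotic genes in WT replicates 1 and 2 and LSD1 KO replicates 1 and 2.

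Among cells that had at least 3 mitotic genes, the summed mitotic level was alike in the libraries, at 18.0 and 18.5 UMIs per 5000 in WT and 18.0 and 18.4 in LSD1 KO. Over all thinned cells it was 13.3 and 13.9 against 16.6 and 17.3. The S-phase sum differed in both: 9.05 and 9.56 against 13.3 and 13.6 UMIs per 5000 in cells with at least 3 S-phase genes, and 8.17 and 8.67 against 13.0 and 13.3 in all thinned cells. The mitotic genes thus had more cells above 3 genes at a like level per such cell, while the S-phase genes were higher within such cells as well. Cells chosen by 3 genes are chosen on the same UMIs, so these levels are a description.

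Of 3 genes followed singly, Ccne1 and Plk1 had larger shares of cells in LSD1 KO and Ccne2 did not. Ccne1 was seen in 10.6% and 11.8% of thinned cells in WT, against 30.2% and 34.8% in LSD1 KO (20.5%, 20.3%, 45.5% and 59.6% without thinning). Ccne2 was seen in 10.7% and 10.6% in WT, against 10.7% and 9.38% in LSD1 KO (22.6%, 18.0%, 21% and 28.1% without thinning). Plk1 was seen in 21.5% of cells in either WT library and in 33.0% and 33.5% of LSD1 KO cells. The groups did not overlap for Ccne1 and Plk1, which was not particular to them. In thinned cells both LSD1 KO libraries lay above both WT libraries for every member other than Ccne2. Cenpf, whose level in whole EBs lay lower in LSD1 KO, was seen in 45.9% and 47.0% of WT and 56.6% and 60.9% of LSD1 KO cells. The share of all genes with such an order was not counted.

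The genes of each set were seen together in cells. For each gene, the share of thinned cells with it among cells that had at least 3 other genes of a set was divided by the share among the other cells. This ratio for the mitotic set ran from 2.14 to 21.6 over the 21 mitotic genes and the 4 libraries, and was 9.96 to 21.6 for Plk1. In all 4 libraries, 16 of 21 mitotic genes had a larger ratio with the mitotic set than with the S-phase set. Likewise 10 of 19 S-phase genes had a larger ratio with the S-phase set. Cdc6 is not among these 10, although its ratio with the S-phase set was the larger in 3 libraries. In LSD1 KO replicate 2 that ratio has no finite value, at 17.7% of cells against 0.0%. In LSD1 KO replicates 1 and 2, 4232 of 4363 and 2124 of 2176 thinned cells had at least 3 S-phase genes. Ratios with the S-phase set thus rest on few other cells there, and the counts of 16 and 10 depend on them. Rrm2 was an S-phase gene with ratios of 2.64 to 3.55 with the S-phase set and 3.19 to 4.38 with the mitotic set. Cells with more of these genes were deeper before thinning, and the part of depth in these ratios was not tested.

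To compare cell types, a cell was gated to 1 of 12 lists of 8 markers if it showed at least 3 of them and more than of any other list. Cells with at least 3 pluripotency and at least 3 neuron markers formed a gate of their own. That joint gate held 24 and 65 WT cells but 2405 and 1668 LSD1 KO cells, which is 42.2% and 54.8% of the LSD1 KO libraries. Gates with at least 30 cells in every library were pluripotency (39 and 247 WT cells, 635 and 287 LSD1 KO cells), neuron (39 and 83, 599 and 166) and neural progenitor (40 and 103, 30 and 35). Counts below rest on these small numbers, and CPM within gates are of the summed UMIs of the gate.

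**Figure D4:**
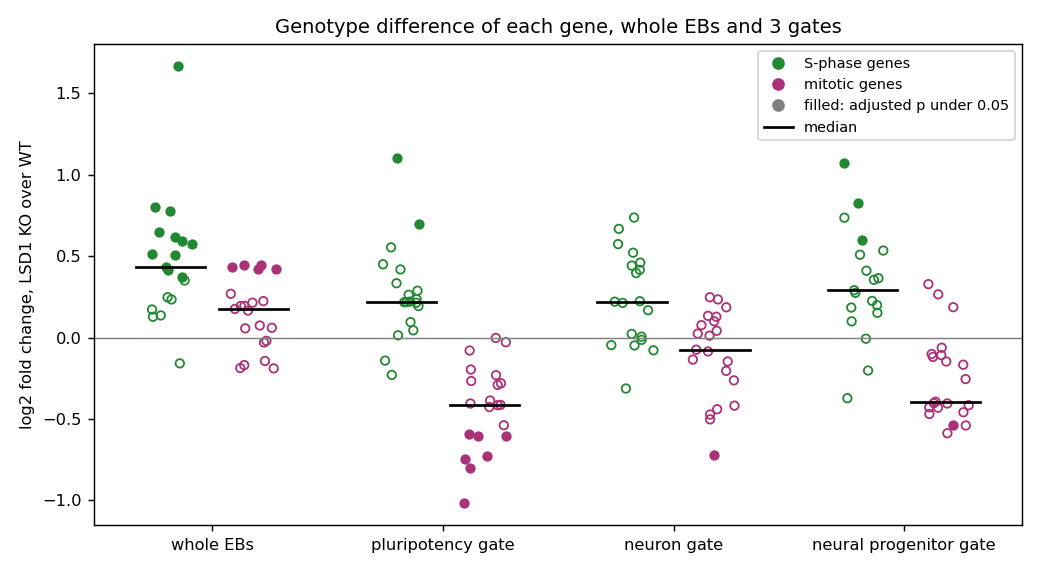
Log2 fold change of LSD1 KO over WT for each S-phase and mitotic gene within the pluripotency, neuron and neural progenitor gates and in whole EBs. Within the pluripotency gate the median is 0.22 for S-phase genes and -0.41 for mitotic genes.

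Within the pluripotency gate, 2 S-phase genes were higher and 7 mitotic genes lower in LSD1 KO. Of 11857 genes tested there, 5.87% were called higher and 4.66% lower. Among S-phase genes 2 of 19 were called higher and 0 lower, and 12 had both LSD1 KO libraries above WT. Among mitotic genes 7 of 21 were called lower and 0 higher, all 21 had a log2 fold change below 0, and 16 had both LSD1 KO libraries below WT. At an unadjusted p under 0.05 in edgeR, 4 S-phase genes were higher, 0 lower, and 11 mitotic genes lower, 0 higher. The shares of all genes with such an order of libraries, or at an unadjusted p, were not counted for any gate. So these counts have no background beside them.

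The S-phase genes called in this gate were Ccne1 and Pcna. Ccne1 was at 38.6 and 35.8 CPM in WT and at 80.3 and 90.4 CPM in LSD1 KO, a log2 fold change of 1.10 ± 0.17 (SE; edgeR adjusted p = 0.00535). Pcna was at 230 and 219 against 388 and 396 CPM, a log2 fold change of 0.70. Neither overlapped between genotypes. Ccne2 was at 22.3 and 15.2 against 22.2 and 21.1 CPM, with overlap.

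Among the 7 mitotic genes that fell in this gate, Cenpf fell most. It was at 397 and 420 CPM in WT and at 212 and 225 CPM in LSD1 KO, a log2 fold change of -1.02 ± 0.13 (SE; edgeR adjusted p = 0.00178). Ube2c was at 510 and 455 against 318 and 300 CPM, and Nusap1, which bundles spindle microtubules, at 169 and 166 against 106 and 102 CPM. These genotype groups were well apart. Ccnb2, Cdc20, Tpx2 and Aurkb were the other 4, at log2 fold changes of -0.73, -0.60, -0.60 and -0.60. Plk1, which was higher in whole EBs, had a log2 fold change of -0.20 here and was not called.

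The pluripotency gate did not hold like cells in the 2 genotypes. Cells that also had at least 3 neuron markers were in the joint gate, 2405 and 1668 in LSD1 KO against 24 and 65 in WT. The mitotic sums were 3912 and 3931 CPM in the WT and 3095 and 3125 CPM in the LSD1 KO pluripotency gate. In the joint gate they were 3839 and 3807 CPM in LSD1 KO and 3473 CPM in WT replicate 2. The part of this split was not tested. In the pluripotency gate the median depth was 14390 and 11203 UMIs in WT and 8838 and 10575 UMIs in LSD1 KO. The 8 pluripotency markers summed to 1408 and 3537 CPM in WT and 1778 and 2623 CPM in LSD1 KO, with 5 of 8 overlapping. 7 of 8 germ cell and naive markers lay lower in LSD1 KO (summed 208 and 602 against 80.8 and 108 CPM), and 5 of 8 neuron markers lay higher (195 and 192 against 372 and 280 CPM). Their part in the member genes' differences was not tested. The marker orders, here and in the gates below, are of CPM without TMM scaling. The share of all genes with such an order was not counted for any gate. The count of mitotic genes called lower was 3 without LSD1 KO replicate 1, 2 without LSD1 KO replicate 2, 11 without WT replicate 1, 4 with library totals (which moved the median of all genes to 0.11) and 4 at 2 markers. The S-phase count was 5 without WT replicate 2. It was 1 without LSD1 KO replicate 2 and 0 at 2 markers, where the median of the S-phase genes was -0.04.

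Within the neuron gate 0 S-phase genes were called in either direction (edgeR; 4 higher and 0 lower at an unadjusted p under 0.05) and 1 mitotic gene was called lower. Of 10879 genes 3.8% were called higher and 2.9% lower. That gene was again Cenpf, at 403 and 298 CPM in WT and at 227 and 239 CPM in LSD1 KO (log2 fold change -0.72; edgeR adjusted p = 0.0349). Leaving out WT replicate 1, or LSD1 KO replicate 1, ended this call. Pcna was at 157 and 198 against 326 and 295 CPM and missed the threshold (edgeR adjusted p = 0.0513). In this gate 7 of 8 neuron markers lay higher in LSD1 KO, at a sum of 510 and 563 against 1083 and 879 CPM, and the pluripotency markers summed to 85.3 and 124 against 360 and 203 CPM. The part of these markers was not tested.

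Within the neural progenitor gate 3 S-phase genes were called higher and 1 mitotic gene lower, where 5.78% of 8731 genes were called higher and 3.28% lower. Ccne1 was at 29.2 and 42.5 CPM in WT and at 76.5 and 77.6 CPM in LSD1 KO (log2 fold change 1.07; edgeR adjusted p = 0.00822). Pcna was at 241 and 245 against 399 and 339 CPM, and Fen1 at 37.3 and 47.9 against 87.4 and 69.0 CPM. All 3 had both LSD1 KO libraries above WT. Cenpf was at 528 and 446 against 295 and 361 CPM. All 4 calls were lost when WT replicate 1 was left out, and leaving out either LSD1 KO library gave an S-phase count of 1 and a mitotic count of 0. Here 6 of 8 neuron markers lay higher in LSD1 KO, at a sum of 383 and 232 against 595 and 653 CPM.

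The genotype effect was then compared between gates with an interaction term in edgeR. 0 members passed the adjusted threshold in any of the 3 pairs of gates, where 0.921%, 1.16% and 0.0829% of 10853 genes did in either direction. At an unadjusted p under 0.05 there were 7 mitotic and 1 S-phase genes between the neuron and pluripotency gates, 3 and 1 between the neural progenitor and pluripotency gates, and 1 and 0 between the neural progenitor and neuron gates. The share of all genes at an unadjusted p was not counted for these pairs. The smallest adjusted p in edgeR was 0.144. So a gene called in 1 gate and not in another is not shown to differ between them.

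Gates of WT EBs differed most in the mitotic genes, and the visceral endoderm gate, named for cells with markers of the layer that surrounds and feeds the early embryo, was the lowest. Each of the 8 WT gates with at least 30 cells in both libraries was set against the mean of the others (11816 genes, 2 libraries a gate, 109 visceral endoderm cells). In visceral endoderm 20 of 21 mitotic genes were called lower and 0 higher, against 12.5% of all genes lower. The falls ran from 1.73 for Cenpf to 0.67 for Kif20b on the log2 scale, and Kif11, a spindle motor, was the 1 not called. The summed mitotic level was 1615 and 1154 CPM there and 4518 and 4461 CPM in the neural progenitor gate. At least 3 mitotic genes were seen in 29 of 58 thinned visceral endoderm cells (exact 95% interval 36.6% to 63.4%) of WT replicate 1 and in 16 of 43 (37.2%, 23.0% to 53.3%) of WT replicate 2. Such intervals cover counting error only, and no cell type known to lack these genes was there to give a background.

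The S-phase genes also lay lower in this gate, by less than the mitotic genes, with median log2 fold changes of -0.27 and -1.11. The S-phase genes summed to 1431 and 1326 CPM. Of 19, 5 were called lower and 1 higher, against 12.5% and 16.1% of all genes. Rrm2 was the lowest, at -1.79 ± 0.22 (SE; edgeR adjusted p = 5.01e-06), followed by Mcm5 at -0.59 and Rrm1 at -0.44. The 1 higher gene was Ccne2, at 34.6 and 44.5 CPM, with a log2 fold change of 1.12 ± 0.22 (SE; edgeR adjusted p = 0.000666). Cdkn1c, an inhibitor of cyclin-dependent kinases, was at 544 and 561 CPM there. As a check of the gate's name, Ttr, which is not a marker of the gate, was at 2303 and 2431 CPM. Apob was at 714 and 395 CPM, but it is a defining marker, so its level cannot check the name. Afp, also a defining marker, was near 0 at 7.25 and 0 CPM.

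**Figure D5:**
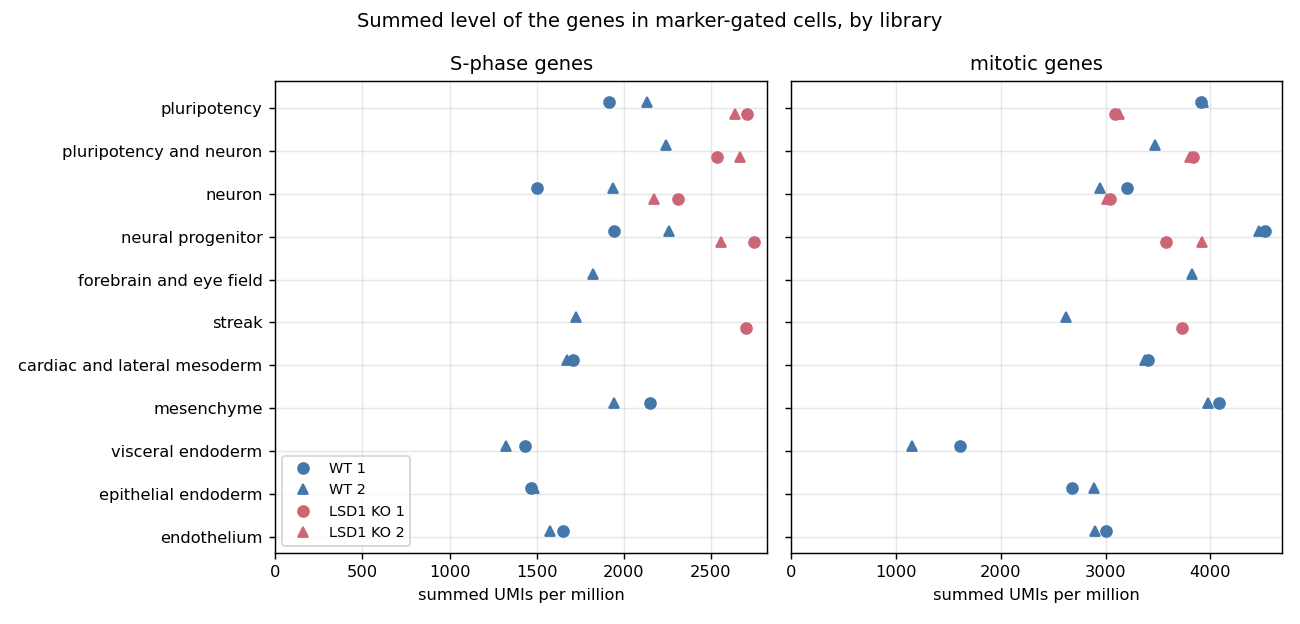
Summed CPM of the S-phase genes and of the mitotic genes in each gate, with 1 point per library. The visceral endoderm gate of WT has the lowest mitotic sums, at 1615 and 1154 CPM.

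At the other end, 14 mitotic genes were called higher in the WT neural progenitor gate (8.09% of all genes), up to Plk1 at 0.97 ± 0.13 (SE). Mesenchyme had 11 higher (9.86% of all genes), pluripotency 10 (13.6%) and cardiac and lateral mesoderm 6 (14.4%). Pluripotency and S-phase genes went together in another way: Ung, Cdt1, Mcm5, Mcm7 and Mcm2 were higher in the WT pluripotency gate, at log2 values of 1.35, 0.56, 0.55, 0.50 and 0.44. Epithelial endoderm had 4 S-phase genes lower (5.97%) and 0 mitotic genes called (edgeR; 0 higher and 4 lower at an unadjusted p under 0.05, a rule for which the share of all genes was not counted). In the neuron gate 2 mitotic genes, Kif11 and Mki67, were lower (2.2%), and in endothelium 3 mitotic genes were higher and 1 lower (17.1% and 12.4%). The visceral endoderm count of mitotic genes lower was 19 to 20 in every gate setting and with library totals. In the other gates the counts moved: at 2 markers 5 mitotic genes were higher in pluripotency, library totals (which moved the median of all genes in the neural progenitor gate to 0.16) gave 21 in neural progenitor and 1 higher and 2 lower in endothelium, 4 markers gave 20 in mesenchyme and 12 in cardiac and lateral mesoderm, and the 4 S-phase genes lower in epithelial endoderm were 0 at 4 markers and after thinning.

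Among the 4 gates of LSD1 KO EBs that could be compared (13191 genes), differences were smaller. The S-phase genes that were higher in the pluripotency gate were Ung at 0.62, Cdt1 at 0.39, Mcm5 at 0.30 and Mcm2 at 0.24 (8.1% of all genes), each of which was also called there in WT. In that gate 7 mitotic genes were lower (7.31%), from Cenpf at -0.38 to Birc5 at -0.24. In the joint gate of pluripotency and neuron markers 10 mitotic genes were higher (3.62%), by 0.23 to 0.41, and in the neuron gate 7 S-phase genes were lower (2.18%), by 0.29 to 0.45, and 4 mitotic genes. The neural progenitor gate had 1 mitotic gene higher, Cenpf at 0.38 (1.11%). The mitotic sums were 3095 and 3125 CPM in the pluripotency gate and 3839 and 3807 CPM in the joint gate, whose cells had a median of 16451 and 29242 UMIs against 8838 and 10575. With cells thinned to 5000 UMIs before gating, 0 mitotic genes were called in the joint gate and their median turned from 0.26 to -0.09, and 1 was higher and 1 lower in the pluripotency gate. In the pluripotency gate 0 mitotic genes were called at 4 markers, and 0 S-phase genes were higher and 1 lower at 2 markers. The 7 S-phase and 4 mitotic genes lower in the neuron gate were 2 and 1 after thinning and 10 and 13 at 2 markers.

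Other genes of the same processes were read from 7 lists in the whole-EB comparison. Of 52 further replication genes, 25 were called higher and 1 lower, with a median of 0.31, where 22.6% of all genes were called higher and 21.6% lower. Dut, which clears dUTP, was at 249 and 324 CPM in WT and at 562 and 621 CPM in LSD1 KO (log2 fold change 1.05). Rpa1 and Rpa2, which coat single-stranded DNA, and Mcm10, a helicase cofactor, were at 0.96, 0.80 and 0.90. The 1 lower gene, named after its values were seen, was Rnaseh2a at -0.45.

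Of 57 further mitotic genes tested, 9 were higher and 3 lower, with a median of 0.05. Of all genes, 22.6% were called higher and 21.6% lower. Mad2l1, of the spindle checkpoint, was at 27.9 and 29.0 CPM in WT and at 64.3 and 68.8 CPM in LSD1 KO (log2 fold change 1.23). Pttg1, securin, was at 38.2 and 46.8 against 90.0 and 95.1 CPM. Both exceeded every one of the 21 mitotic genes in log2 fold change. Ckap2 and Cks1b were at 0.62 and 0.58, and the 3 that were lower, named after their values were seen, were Aspm, Bora and Ckap2l. Of 15 genes of the anaphase-promoting complex and its partners, 2 were higher and 2 lower, against the same 22.6% and 21.6% of all genes. Fbxo5, at 0.46, and Ube2s, at 0.44, were higher, and Cdc16, at -0.40, and Anapc2, at -0.38, were lower.

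Upstream of Ccne1, the D cyclins, which with Cdk4 or Cdk6 act earlier in G1, did not move alike. Ccnd1 was at 40.3 and 41.6 CPM in WT and at 125 and 119 CPM in LSD1 KO, a log2 fold change of 1.58 ± 0.084 (SE; edgeR adjusted p = 0.000506). Ccnd2 was at 195 and 202 against 79.1 and 33.3 CPM, and Ccnd3 at 102 and 91.8 against 53.5 and 56.3 CPM. No pair of groups overlapped: Ccnd1 rose, and Ccnd2 and Ccnd3 fell by 1.82 and 0.82. Cdc25a, a phosphatase that activates Cdk2, rose by 0.45, and Cdk2, Cdk4 and Cdk6 were not called, at -0.05, -0.00 and -0.12. Of 20 E2F, DREAM and MuvB factors 6 were higher and 0 lower (edgeR; 8 and 0 at an unadjusted p under 0.05). Of all genes, 22.6% were called higher and 21.6% lower, and 4620 and 4520 of 16953 were so at an unadjusted p. Among these factors E2f4 went from 52.2 and 50.5 to 70.6 and 77.0 CPM. Mybl2, which encodes B-Myb and was named after its values were seen, went from 26.4 and 30.8 to 43.3 and 55.0 CPM.

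Inhibitors of cyclin-dependent kinases moved in both directions. Cdkn1c was at 295 and 211 CPM in WT and at 8.32 and 9.17 CPM in LSD1 KO, a log2 fold change of -4.85 ± 0.20 (SE; edgeR adjusted p = 0.000398). Cdkn1b, p27, was at 44.7 and 44.9 against 19.9 and 23.6 CPM. These 2 fell, by 4.85 and 1.04. Cdkn1a, p21, was at 64.0 and 86.3 against 192 and 136 CPM, and rose by 1.12. Cdkn2a and Cdkn2b were low in WT, at 9.21 and 8.85 and at 1.40 and 1.91 CPM, and rose by 2.05 and 1.87. Cdkn2c and Cdkn2d were not called, at 0.74 and -0.28. Cdkn1c was at 113 and 42.7 CPM in the WT and 11.1 and 13.1 CPM in the LSD1 KO pluripotency gate, so the groups stood apart within that gate as well.

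Cell handling was read from 10 immediate early genes, which dissociation of tissue can induce. 5 were lower in LSD1 KO and 0 higher in edgeR, where 21.6% of all genes were called lower and 22.6% higher. At an unadjusted p under 0.05, 6 of the 10 were lower and 1 higher, where 4520 and 4620 of 16953 genes were. The 4 with the largest changes were Fosb at -1.40, Egr1 at -1.28, Jun at -1.26 and Fos at -1.06. Whether the cells' handling had a part in the members' differences was not tested.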

How the data were processed

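The authors prepared droplet scRNA-seq libraries of day 6 EBs and deposited raw UMI counts per gene and barcode, unfiltered and not normalized. Per the labels, Cell Ranger 7.1.0 and Seurat 4.3.0 were used, with mm9 as the build. The files held 0 mitochondrial genes.

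A barcode entered as a cell when it had 500 UMIs and 500 genes or more. UMIs were summed per library, or per library and gate, and tested with edgeR 4.0.16 in R 4.3.3 (filterByExpr, TMM, quasi-likelihood F test, Benjamini-Hochberg over all genes tested). The SE is the absolute log2 fold change divided by the square root of F. Cells are not replicates, and no test used them as such. Gates were called from 12 lists of 8 markers. No doublet caller was run, and an alternative left out the 5% of cells with the most UMIs. Whole-EB CPM were TMM-scaled. The order of libraries within gates was taken after TMM scaling for the S-phase and mitotic genes, but from CPM without TMM scaling for the gate markers. Replicates differed by more than sampling noise (chi-square divided by its degrees of freedom, 66.9 in WT and 29.3 in LSD1 KO), so each library counted as 1 sample, and p-values measure only the spread between these libraries.

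Alternatives were DESeq2 1.42.0, its size factors, library totals, no gene filter, 2000 UMIs and 1000 genes, a replicate block, each library left out, gates at 2 or 4 markers or after thinning, and other thinning and gene minimums. All 40 members could be named. Of the 7 lists (168 of 170 symbols in the files), up to 4 called genes with at least 50 CPM in the higher genotype and the largest change were named, and every gene of lists with under 10. Members, lists and markers were chosen with earlier results of these data known. Promoters are from RefSeq (GRCm38.p6) and gene positions from GENCODE on NCBIM37, whose coordinates were not mixed. Promoters of 7 members were not analysed here.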

Additional observations from a re-analysis of the deposited data

Results flagged for a closer look

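Barcodes under 100 UMIs, which hold mostly free RNA and entered no comparison, also carried the S-phase and mitotic genes, at higher levels in both LSD1 KO libraries than in both WT libraries. The S-phase genes summed to a mean of 2685 CPM in these barcodes of LSD1 KO and 1730 CPM in WT, which was 97.6% to 113% of their level in the cells of the same library. The mitotic genes summed to a mean of 2875 CPM in LSD1 KO and 2444 CPM in WT, or 75.3% to 83.5% of their level in cells. The part of free RNA in the shares of cells was not tested.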

How the results depend on the processing

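No member called in whole EBs changed direction in any setting run there. Over the counts and shares under all alternatives, 139 values stayed within 1.5 times the reported one, or, for shares, kept their direction, and 41 moved. The 139 include many counts of 0 that stayed 0, such as the members called lower in whole EBs. Totals between gates were compared even where a setting had another number of gates. So the 139 is no measure of how stable the calls are. Leaving out 1 library each gave 6 to 12 S-phase and 0 to 8 mitotic genes higher in whole EBs, and 1 to 5 S-phase genes higher and 2 to 11 mitotic genes lower in the pluripotency gate. In the neuron gate it gave 0 to 2 and 0 to 1, in the neural progenitor gate 0 to 3 and 0 to 1. The difference in the share of cells ranged from 19.0 to 20.6 points for mitotic and 8.69 to 9.53 points for S-phase genes. The lone library left in a genotype is then assumed to vary like the other genotype.

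With library totals, 12 mitotic genes and, in the other lists, 9 genes lower were called in whole EBs. In the pluripotency gate 4 mitotic genes were lower with totals and 4 at 2 markers, where 0 S-phase genes were higher. In the neuron gate 2 S-phase genes were higher and 0 mitotic genes lower with totals, and 1 and 4 at 2 markers. Over the WT gates, the reported calls cover 8 gates, and thinned gating and 4 markers each leave 5. Over the same 5 gates, thinned gating gave 7 S-phase calls higher, 5 lower and 27 mitotic calls higher. The reported setting gave 4, 12 and 20 there (12, 12 and 44 over 8), and 4 markers gave 10, 6 and 36. Over the LSD1 KO gates (4 gates; 4, 7, 11 and 11 calls), 2 markers, with 3 gates, gave 14 S-phase calls higher and 11 lower and 20 mitotic calls higher and 20 lower. Thinned gating, with 5 gates, gave 3 mitotic calls higher and 3 lower, and totals 4 S-phase calls lower and 7 mitotic calls higher. Each gate is set against the mean of the others, so another set of gates also changes what it is compared with. The cause of these moves was not tested.

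Whether libraries with the same replicate number were prepared together is not given in the sources used here. Across genes, replicate 1 minus replicate 2 correlated at 0.157 between genotypes, which does not settle it. With a replicate block, 14 S-phase and 5 mitotic genes were higher in whole EBs, 3 S-phase genes higher and 8 mitotic genes lower in the pluripotency gate, and 2 S-phase genes higher in the neuron gate. Within-gate tests at 4 markers and after thinned gating, and the neural progenitor gate at 2 markers, were not run, since a library held under 30 cells. With 2 libraries a genotype, changes near the size of the mitotic calls lie at the limit of what these data can call.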
